A study of Oryctolagus cuniculus with 34 samples.

Results

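The genes that carry sugar and stored glycogen down to lactate were followed in rabbit supraspinatus, which lifts the upper limb and belongs to the rotator cuff. A list of 36 genes of glycolysis and glycogen metabolism was matched by gene name to the counted genes. Of these, 34 were found among 18176 genes, and PFKL and PPP1R3D had no entry under those names. All 34 passed the filter on low counts in the main fits of the short term, the long term and all libraries. In the long term PYGL passed it mainly through uninjured muscles. Bulk RNA sequencing had been done on 34 muscles. In the short term 4 muscles had the injury only, 5 had a repair, and 5 had a repair with a matrix gel made from tissue. The long term held 5 repaired, 5 gel-treated repaired and 10 uninjured muscles. The sources used here state neither the rabbits' age, sex and strain nor the length of each term or the surgery. Uninjured muscle was compared in the long term only and muscle with the injury only in the short term only, so the terms have no common untreated group.

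Muscle stores glucose as glycogen, which glycogen phosphorylase shortens on demand and glycogen synthase rebuilds. Glycolysis then splits the sugar into pyruvate, which lactate dehydrogenase turns into lactate when energy is needed faster than mitochondria supply it. Several steps have a muscle isozyme, abundant in fast fibres, and at least 1 other isozyme used by fibroblasts, immune cells, nerve and many other tissues. In bulk tissue a lower level of a muscle isozyme can mean fewer fibres or less RNA per fibre, and these cannot be told apart.

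The libraries held 26904529 to 32313295 counts in the short term and 12582302 to 15019158 in the long term. The listed genes took 2.69% to 13.7% of a library's counts. Genes of fast fibres summed to 40706 to 331459 CPM (counts scaled to library size, with TMM over all libraries), and 11 of the 15 listed were in the files, none of them at 0 in all libraries. Some libraries lay apart from the rest of their group. The injury library 3 had a fast fibre sum of 49784 CPM against 222073 to 331459 in the other 3 of its group, with 1136 CPM of tenocyte markers against 70.4 to 120 and 8394 CPM of fibroblast markers against 1249 to 2118. The repair library 4 had a fast fibre sum of 291371 CPM against 40706 to 123871 in the other 4, and 1230 CPM of fibroblast markers against 8958 to 83827. In the long term the gel library 1 had a fast fibre sum of 316846 CPM against 151652 to 208136 CPM in the other gel libraries. For the main counts and levels that rest on these 3 libraries, values without them are also given. The labels do not say that a group's libraries are from different rabbits, so p-values measure the spread between these libraries, which may be technical in part.

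The mean log2 CPM over the 34 genes described each library by a single level. It was 8.69 ± 0.742 (SD, n = 4) with the injury only, 8.05 ± 0.621 (n = 5) with repair and 8.23 ± 0.384 (n = 5) with repair and gel in the short term. In the long term it was 7.90 ± 0.229 (n = 10) in uninjured muscle, 8.01 ± 0.162 (n = 5) with repair and 8.14 ± 0.175 (n = 5) with repair and gel. Without the long-term gel library 1 the long-term gel level was 8.07 (7.94 to 8.18, n = 4). Ordered by level, all neighbours differed by less than the larger SD of the pair. Without the injury library 3 the injury-only level was 9.06 ± 0.101 (n = 3), and without the repair library 4 the short-term repair level was 7.80 ± 0.352 (n = 4). Without those libraries the 3 injury-only levels, 8.95 to 9.14, lay above the 4 repair levels, 7.42 to 8.24. Because GAPDH and PGK1 differed between the terms far more than the other genes, the level was also taken over the remaining 32: it was then 8.49 with the injury only, 7.89 with repair and 8.05 with gel in the short term, and 8.11, 8.23 and 8.31 in uninjured, repaired and gel-treated muscle in the long term.

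**Figure D1:**
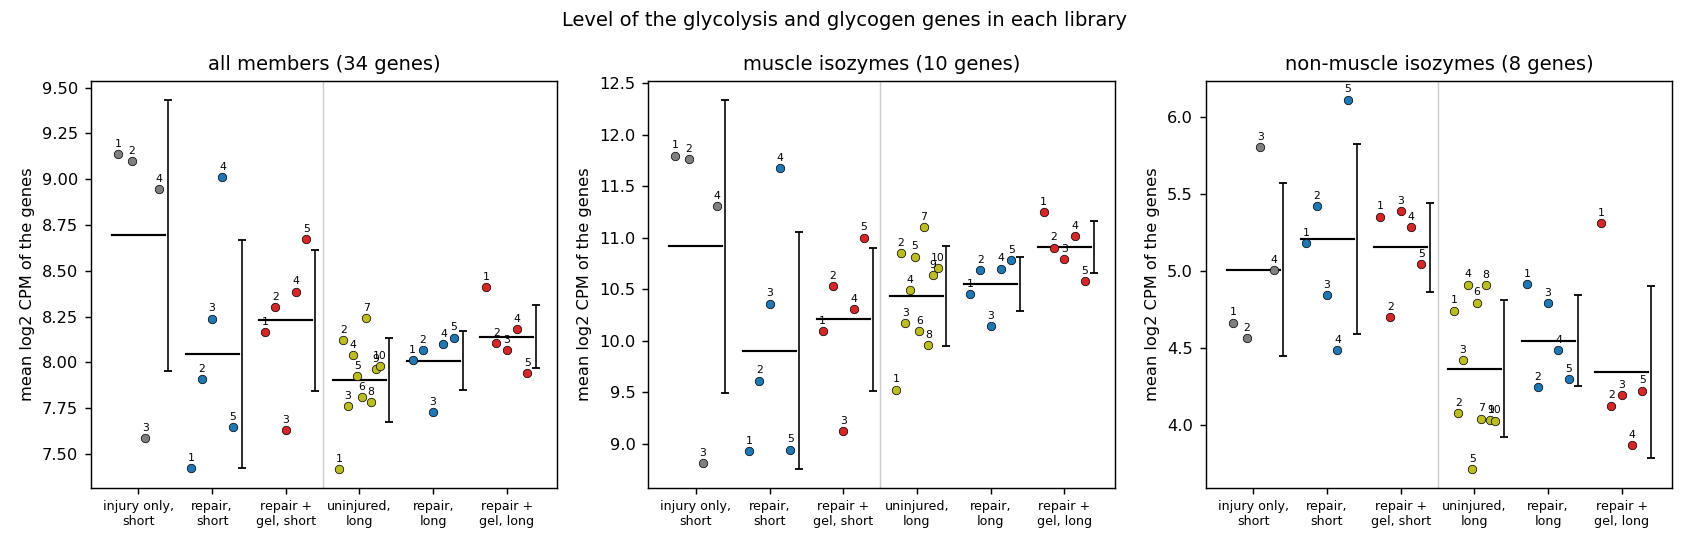
Mean log2 CPM per library for all 34 genes, the 10 muscle isozymes and the 8 other isozymes, by group; each point is a library with its replicate number, the horizontal bar is the group mean and the whisker its SD. The injury library 3 (7.59) and the repair library 4 (9.01) sat at the opposite end from the rest of their groups.

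The 10 muscle isozymes and the 8 non-muscle isozymes were summarised separately. The muscle list held PYGM, PFKM, ALDOA, PGAM2, ENO3, PHKA1, PHKG1, GYS1, FBP2 and PPP1R3A. The non-muscle list held PYGB, PYGL, PFKP, ALDOC, PGAM1, ENO1, LDHB and HK1. LDHB also serves heart and slow fibres and HK1 most tissues, so the level of this list is not read as that of non-muscle cells. In the injury-only group the muscle isozymes had a mean log2 CPM of 10.9 ± 1.42 (SD, n = 4), and 11.6 ± 0.271 (n = 3) without library 3, whose own level was 8.81. With repair they were at 9.90 ± 1.15 (n = 5) in the short term, and at 9.46 ± 0.679 (n = 4) without library 4. With gel they were at 10.2 ± 0.696 (n = 5). The non-muscle isozymes were at 5.01 ± 0.562 in the injury-only group, and at 5.80 in library 3 alone. They were at 5.21 ± 0.616 with repair and 5.16 ± 0.288 with gel. Without the same libraries they were at 4.75 ± 0.231 (n = 3) with the injury only and 5.39 ± 0.537 (n = 4) with repair. The libraries low in muscle isozymes were not low in all glycolytic genes: in the short term the lowest muscle isozyme levels, 8.81 to 9.12, were in injury library 3, repair libraries 1 and 5 and gel library 3, and their non-muscle isozyme levels were 5.80, 5.18, 6.12 and 5.39. Those 4 libraries were among the 5 with the lowest fast fibre sums of the short term, at 40706 to 95898 CPM, and the part of fibre content in these levels was not tested.

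**Figure D2:**
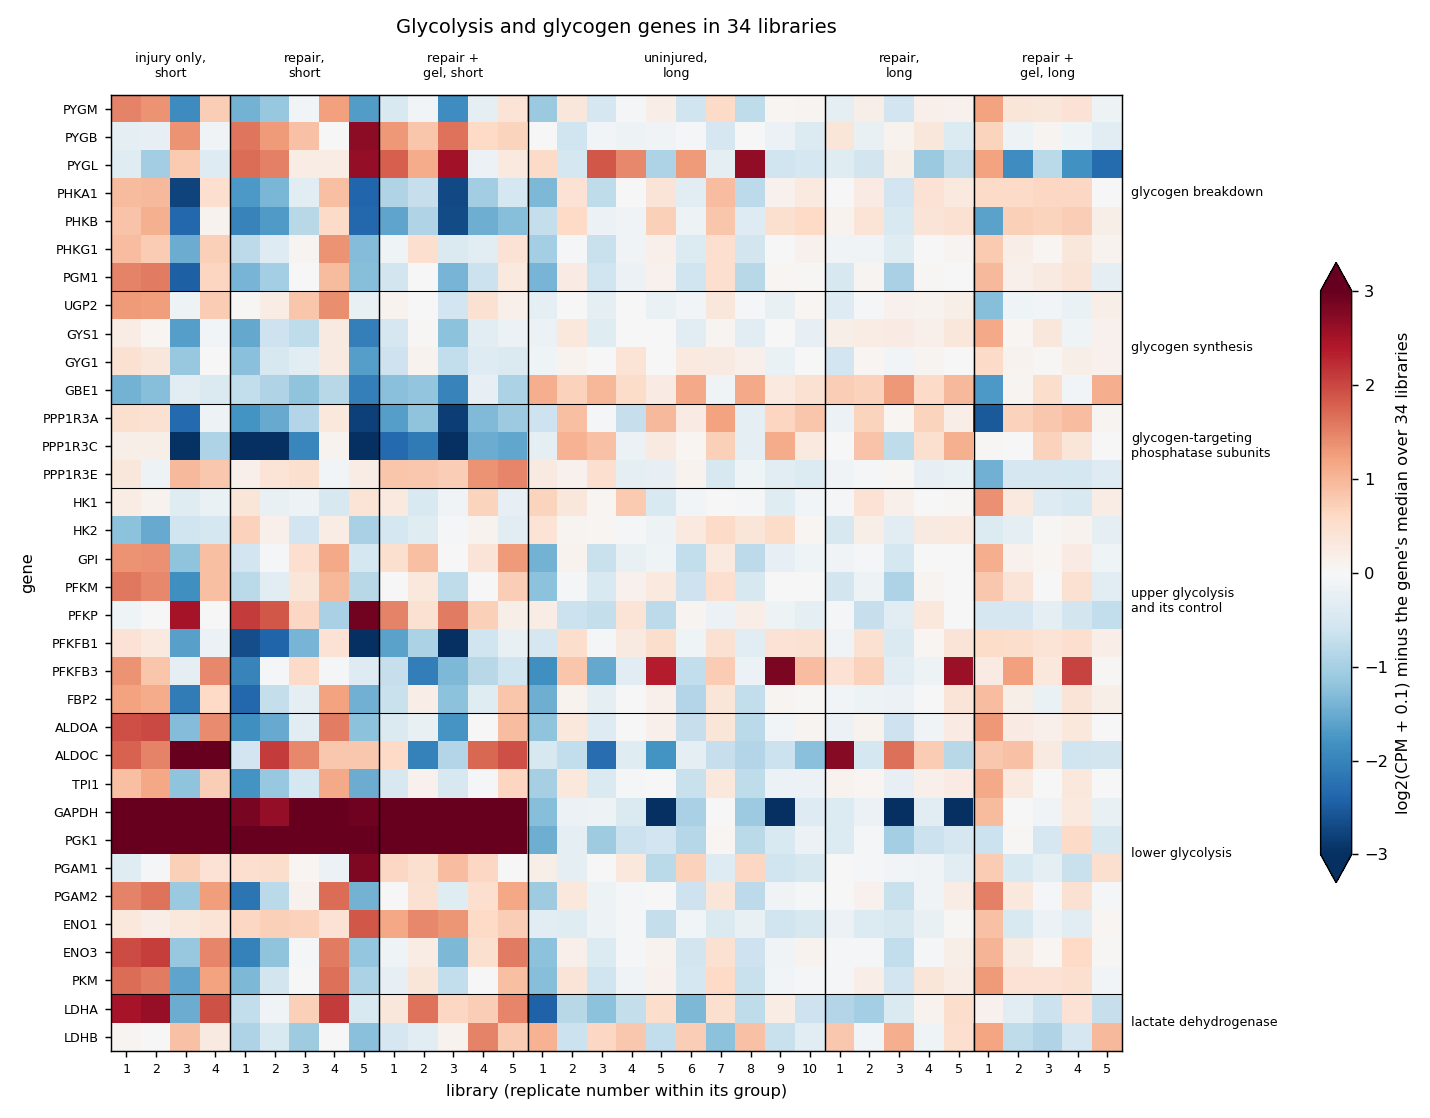
Each row is a gene and each column a library, grouped by treatment and term; colour is log2 CPM (with a small constant) minus the gene's median over 34 libraries, red above and blue below. GAPDH and PGK1 are above their medians in all short-term libraries, and the columns of injury library 3, repair libraries 1 and 5 and gel library 3 are mostly blue for the muscle isozymes and red for PYGB and PFKP.

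Repair was compared with the injury only in the short term to ask what the operation did to the early muscle. With all libraries, edgeR's quasi-likelihood test called 0 of the 34 genes at an adjusted p under 0.05, beside 0% of 13526 genes tested. The median log2 difference over the 34 genes was -0.94 and 7 of 34 were above 0, beside a median of 0.02 and 51.7% above 0 over all genes. At an unadjusted p under 0.05, 4 were higher and 4 lower, where 9.5% and 5.09% of all genes were. All 10 muscle isozymes were below 0 (median -0.95) and 6 of the 8 non-muscle isozymes above 0 (median 0.67).

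Without injury library 3 and repair library 4, the same test called 26 of the 34 genes, 3 higher and 23 lower with repair, beside 33.3% of 13662 genes. These libraries were set aside because earlier results of the same measurements placed them apart, so the calls are not independent evidence. The lower ones held all 10 muscle isozymes, all of them past the threshold, with a median log2 difference of -2.10. ALDOA, the muscle aldolase that splits the phosphorylated sugar, was at -2.97 (SE 0.58, adjusted p = 0.00537). GAPDH was at -2.70 (SE 0.35, adjusted p = 0.00279), LDHA, the lactate-forming dehydrogenase subunit, at -2.46 (SE 0.43, adjusted p = 0.00429), and PPP1R3C, which brings a phosphatase to glycogen, at -2.97 (SE 0.61, adjusted p = 0.00613). The 3 higher genes were PYGB and PYGL, the phosphorylases named for brain and liver, at 1.92 (SE 0.39) and 2.44 (SE 0.74), and PFKP, the platelet phosphofructokinase, at 2.10 (SE 0.49). With all libraries kept, limma voom with sample quality weights called 27 genes, 4 higher and 23 lower, beside 34.8% of all genes. The weights are estimated from these same data and count libraries far from their group for less. Its likeness to the fit without the 2 libraries is therefore not independent evidence. The share of members called was above the share of all genes in both fits. DESeq2 with all libraries called 0 members and 231 genes.

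The glycogen genes show what the 14 short-term libraries held. PYGM, the muscle glycogen phosphorylase, was at 34288, 31188, 3338 and 20541 CPM in injury libraries 1 to 4. In repair libraries 1 to 5 it was at 4594, 5578, 11599, 28585 and 3856 CPM. In gel libraries 1 to 5 it was at 8913, 11505, 3347, 10229 and 16148 CPM. The groups overlapped through injury library 3 and repair library 4, and the other injury libraries were above all other repair and gel libraries. The fitted log2 difference of repair from injury was -1.06 with all libraries and -2.22 (SE 0.53, adjusted p = 0.00994) without those 2. PYGB ran the other way, at 11.9, 12, 36.8 and 13.3 CPM in injury libraries, 43.4, 34.9, 26.5, 14.3 and 92.7 CPM in repair libraries, and 35.2, 25.5, 44.4, 21.6 and 22.7 CPM in gel libraries. Its lowest repair value was that of library 4 and its highest injury value that of library 3. PYGL was low in all of them, at 0.334 to 5.48 CPM (8 to 228 counts), and its highest values were 5.48 CPM in repair library 5 and 5.09 CPM in gel library 3. PHKA1 and PHKB, the regulatory subunits of the kinase that switches phosphorylase on, spanned 130 to 1749 and 115 to 1552 CPM, with both maxima in injury library 2.

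Among the phosphatase subunits that hold protein phosphatase 1 on glycogen, PPP1R3C was at 524, 524, 59.3 and 244 CPM in injury libraries and at 25.4, 47.1, 118, 496 and 39.1 CPM in repair libraries. In gel libraries it was at 91.5, 106, 29.6, 165 and 158 CPM. PPP1R3A, the muscle-specific subunit, was at 430, 426, 61.6 and 276 CPM with the injury only, at 44.6 to 383 CPM with repair and at 43.8 to 145 CPM with gel. Glycogen synthesis differed less: GYS1, the muscle glycogen synthase, had a log2 difference of -0.53 between repair and injury with all libraries and -1.26 (SE 0.36, adjusted p = 0.0214) without the 2 libraries. GBE1, the branching enzyme, was at -0.31 and -0.22 (adjusted p = 0.686) and passed in neither fit. UGP2, which makes the sugar donor for glycogen, was at -0.32 and -0.91 (adjusted p = 0.0318).

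In upper glycolysis, HK2, the insulin-responsive hexokinase that traps glucose in the cell, had a difference of the opposite sign to the muscle isozymes. It was at 32.7, 26.6, 50.3 and 53.4 CPM with the injury only and at 123, 85.3, 51.1, 89.6 and 39.2 CPM with repair. The groups overlapped, with a log2 difference of 0.92 (SE 0.32, unadjusted p = 0.012, adjusted p = 0.322). HK1, the hexokinase of most tissues, was at 106 to 234 CPM over the 14 libraries, the narrowest range of the 34 genes in the short term (1.15 on the log2 scale). PFKM, the muscle phosphofructokinase, was at 7191, 6526, 676 and 4479 CPM in injury libraries and at 1344 to 4755 CPM with repair. PFKP was at 1.92, 2.09, 12.4 and 2.12 CPM in injury libraries and at 9.37, 7.86, 3.31, 1.03 and 16.3 CPM in repair libraries, so the 2 libraries that lay apart took the reverse place for this isozyme too.

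PFKFB3, which makes the sugar phosphate that activates phosphofructokinase, was at 198, 139, 64.8 and 211 CPM with the injury only. With repair it was at 19.2, 76.4, 116, 75.0 and 59.1 CPM, and with gel at 48.0, 18.2, 30.5, 43.5 and 51.0 CPM. All gel libraries were below all injury libraries, and the share of all genes that separated in this way was not counted. The log2 difference of PFKFB3, gel from injury, was -1.96 (SE 0.46, unadjusted p = 0.000796, adjusted p = 0.134) in edgeR. DESeq2 put it past the threshold (-1.98, adjusted p = 0.00354), as did voom (-2.15, adjusted p = 0.00421) and edgeR without injury library 3 (-2.28, adjusted p = 0.0387). Against repair the gel value was -0.82 and passed in none of the settings tried. ALDOC, the aldolase of brain and other non-muscle tissue, was at 33.4, 27.1, 172 and 115 CPM with the injury only, 6.45 to 41.9 CPM with repair and 2.30 to 37.0 CPM with gel. Its 6.17 log2 range was the widest of the 34 genes in the short term.

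In lower glycolysis the isozymes of a step could be set side by side. ENO3, the muscle enolase, was at 13907, 15012, 1624 and 9910 CPM in injury libraries, 875, 1550, 3481, 10522 and 1601 CPM in repair libraries, and 3301, 4185, 1410, 4998 and 10599 CPM in gel libraries. ENO1, the enolase of most cells, was at 226, 210, 227 and 242 CPM with the injury only, 282, 299, 294, 248 and 661 CPM with repair, and 410, 496, 455, 277 and 306 CPM with gel. All repair and gel libraries were above all injury libraries for ENO1, by 0.65 (SE 0.29, adjusted p = 0.336) and 0.81 (SE 0.29, adjusted p = 0.193) on the log2 scale, and neither passed in edgeR. The share of all genes that separated in this way was not counted. Voom with quality weights called the gel difference of ENO1. PGAM2, the muscle mutase, was at 5203, 5759, 861 and 4472 CPM with the injury only, 409, 1060, 2028, 5935 and 698 CPM with repair, and 1867, 2571, 1454, 2628 and 4165 CPM with gel. PGAM1, the mutase of most cells, stayed within 24.9 to 61.1 CPM in 13 of the 14 libraries and reached 225 CPM in repair library 5, the library with 83827 CPM of fibroblast markers. LDHA was at 6155, 6761, 394 and 4179 CPM with the injury only, 662, 1037, 1817, 4776 and 811 CPM with repair, and 1416, 3412, 1707, 1858 and 3092 CPM with gel.

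The gel-treated repair was also compared with the injury only. edgeR called 0 of the 34 genes, beside 0% of all genes. DESeq2 called 2 (ALDOC and PFKFB3, both lower), beside 5.83% of all genes. The median log2 difference was -0.73, with 8 of 34 above 0, beside 0.02 and 51.9% for all genes. At an unadjusted p under 0.05, 4 genes were higher (ENO1, HK2, PPP1R3E and PYGL) and 5 lower (ALDOC, PFKFB3, PHKB, PPP1R3A and UGP2), where 9.83% and 8.6% of all genes were. Without injury library 3 and repair library 4, 15 genes were called, 1 higher (PYGB, 1.24, SE 0.37) and 14 lower, beside 18.9% of all genes. Of the muscle isozymes, 5 of 10 were then past the threshold, with a median of -1.32. With all libraries voom called 17, 4 higher and 13 lower, beside 28.1% of all genes, with weights again estimated from these same data. This comparison shares its injury libraries with the one above, so their likeness is not a separate result.

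Markers of other cells moved with these differences. Macrophage markers (9 of 11 listed genes in the files) summed to 21.4 to 155 CPM with the injury only, 21.0 to 403 CPM with repair and 83.4 to 402 CPM with gel. Fibroblast markers (8 of 8) summed to 1249 to 8394, 1230 to 83827 and 3663 to 9996 CPM in the same order. Adipocyte markers (7 of 9) ran the other way, at 902 to 3147, 374 to 1197 and 236 to 1166 CPM. Tenocyte markers (6 of 7) summed to 70.4 to 1136, 56.4 to 996 and 174 to 300.4 CPM. No marker of these lists was at 0 in all libraries. Their part in the isozyme differences was not tested.

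Short-term gel and repair, 5 libraries each, were compared to ask what the gel contributed. edgeR called 0 of the 34 genes, beside 0% of all genes. The median log2 difference was 0.09 with 20 of 34 above 0, beside -0.04 and 45.7% for all genes. At an unadjusted p under 0.05, 2 genes were higher with gel (PPP1R3E and LDHB) and 0 lower, where 5.65% and 4.73% of all genes were. Without the 2 libraries that lay apart 0 members were called, beside 0.0952% of all genes, and the median was 0.56 with 25 of 34 above 0, beside -0.01 and 48.6% for all genes. In that fit 12 members were higher and 1 lower at an unadjusted p under 0.05, where 9.82% and 11.2% of all genes were. With all libraries lower glycolysis had 8 of 10 genes above 0 (median 0.23) and glycogen breakdown 1 of 7 (median -0.09). Without repair library 4 lower glycolysis had 8 of 10 above 0 (median 1.06) and glycogen breakdown 5 of 7 (median 0.28), so the direction of the breakdown genes rested on that library. No gene of either list passed in these fits.

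PPP1R3E, a further subunit that targets the phosphatase to glycogen, differed between gel and repair in opposite directions in the 2 terms. In the short term it was at 24.9, 24.7, 23.3, 35.6 and 38.8 CPM with gel and at 15.7, 18.7, 19.6, 13.2 and 16.3 CPM with repair. The groups did not overlap. The log2 difference was 0.86 (SE 0.23, unadjusted p = 0.00232, adjusted p = 0.387) in edgeR, and DESeq2 called it at an adjusted p of 0.0458, the 1 member among 0.939% of all genes. The injury-only values, 17.9, 12.5, 27.7 and 24.7 CPM, spanned both groups. In the long term the order was the reverse: 5.13, 9.79, 9.87, 9.70 and 10.8 CPM with gel and 13, 13.7, 14.3, 11.8 and 12.2 CPM with repair, again with no overlap (log2 difference -0.54, SE 0.20, adjusted p = 0.302). The share of all genes that separated in this way was counted in neither term, so the separation is not read as support for a difference. The test of the difference between the terms in the effect of gel gave -1.34 (SE 0.30, unadjusted p = 7.6e-05, adjusted p = 0.168). In that test edgeR called 0 members beside 0.0155% of all genes, and DESeq2 called PPP1R3E alone among them, beside 0.216%. Total scaling without TMM left the direction as it was in both terms (0.61 and -0.66).

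LDHB, the dehydrogenase subunit of heart and slow fibres, was at 211, 240, 321, 840 and 507 CPM with gel in the short term and at 157, 220, 143, 298 and 126 CPM with repair. The groups overlapped, and gel libraries 4 and 5 held the highest values. The log2 difference was 1.22 (SE 0.39, unadjusted p = 0.00744, adjusted p = 0.413), and 0.80 without gel library 4. Genes of slow fibres, which use this subunit, summed to 26446 and 19518 CPM in gel libraries 4 and 5, to 10018 to 12179 CPM in the other 3, and to 4123 to 15108 CPM with repair. Their part in the LDHB values was not tested.

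**Figure D3:**
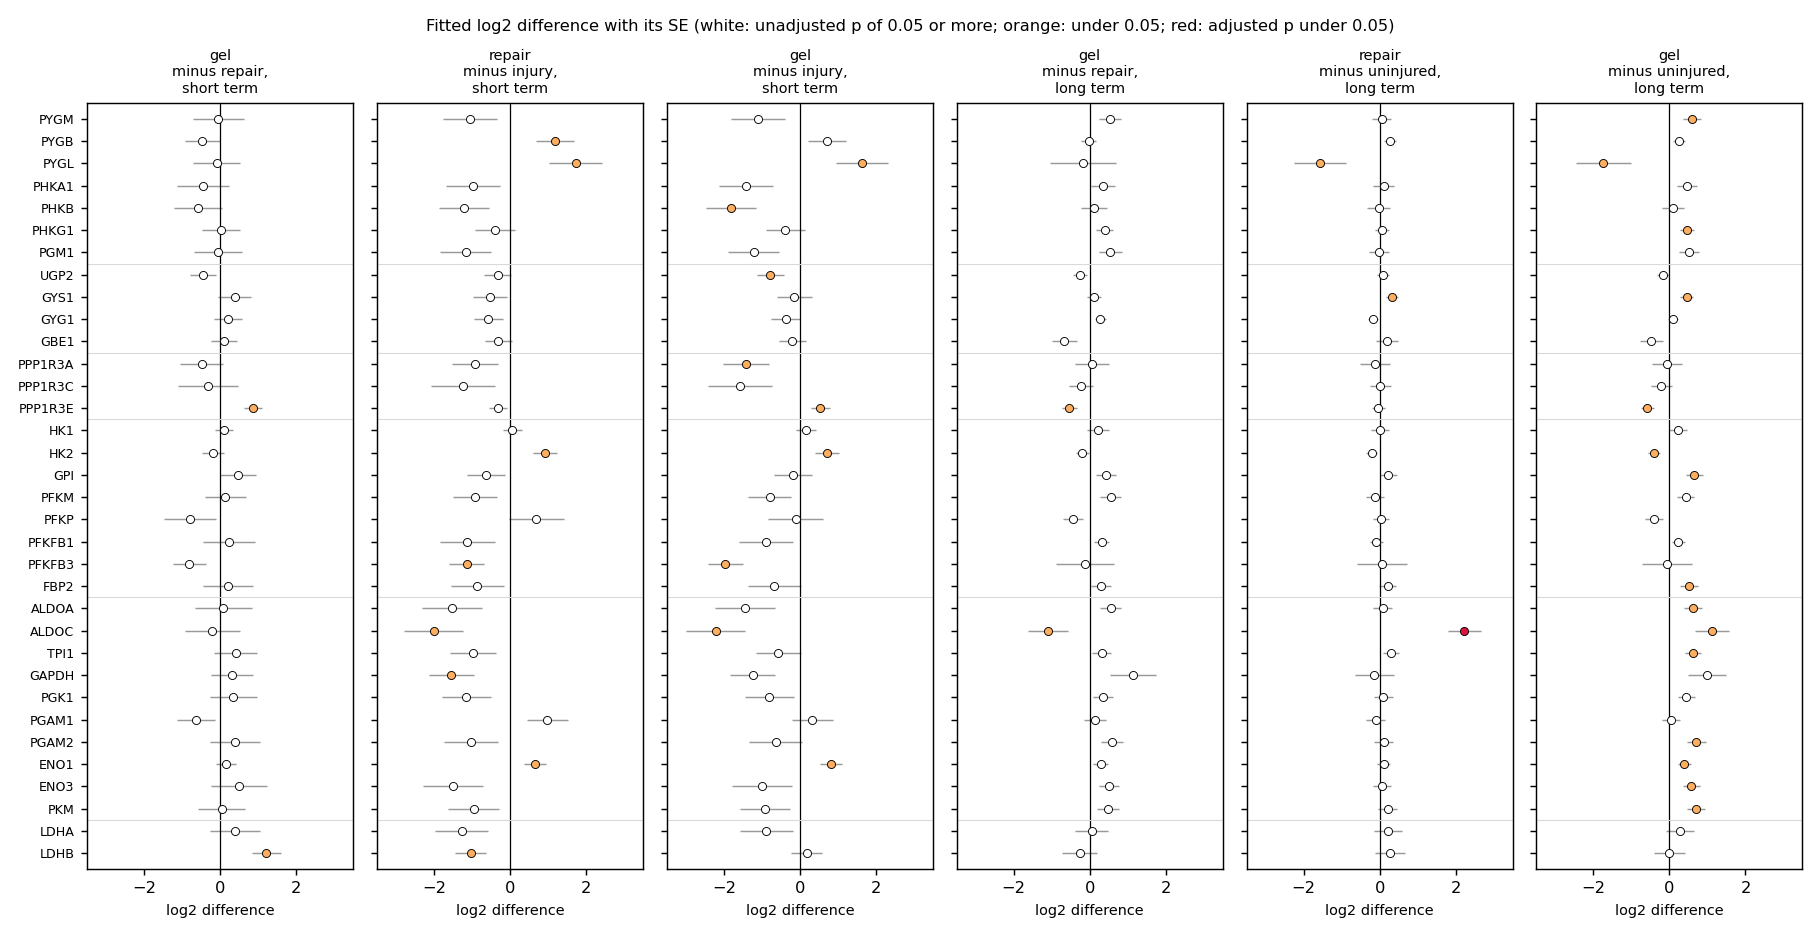
Fitted log2 differences (first group minus second) with SE for the 34 genes in the 6 comparisons within a term; white points have an unadjusted p of 0.05 or more, orange ones under 0.05 and the red one an adjusted p under 0.05. ALDOC in repaired against uninjured muscle (2.23) is the single red point, and for most genes the SEs are wider in the short term.

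Ratios of 2 isozymes within a library do not depend on how libraries were scaled. They compare counts, which grow with transcript length, so only their differences between libraries are read. The log2 ratio of PYGM to PYGB was 11.5, 11.3, 6.50 and 10.6 in injury libraries 1 to 4. It was 6.72, 7.32, 8.77, 11 and 5.38 with repair and 7.98, 8.82, 6.23, 8.88 and 9.47 with gel. The group means were 9.97 ± 2.35 (SD, n = 4), 7.83 ± 2.13 (n = 5) and 8.28 ± 1.26 (n = 5), and repair did not differ from injury beyond that spread (exact permutation test, 2-sided p = 0.206, adjusted p = 0.571). The ratio of ENO3 to ENO1, the muscle and the general enolase, had means of 5.08 ± 1.53, 2.85 ± 1.68 and 3.40 ± 1.32 (repair against injury, exact p = 0.0952, adjusted p = 0.571). The ratio of PGAM2 to PGAM1, the muscle and the general phosphoglycerate mutase, had means of 6.47 ± 1.70, 4.57 ± 2.35 and 5.67 ± 0.903 (repair against injury, exact p = 0.206). Without injury library 3 and repair library 4, the repair and injury means were 7.05 and 11.1 for PYGM to PYGB, 7.82 and 11.4 for PFKM to PFKP, 3.80 and 7.29 for PGAM2 to PGAM1, and 2.21 and 5.82 for ENO3 to ENO1, with no overlap in any of the 4. These values have no test, since the 2 libraries had been seen. LDHA to LDHB and HK2 to HK1 overlapped in that setting too.

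**Figure D4:**
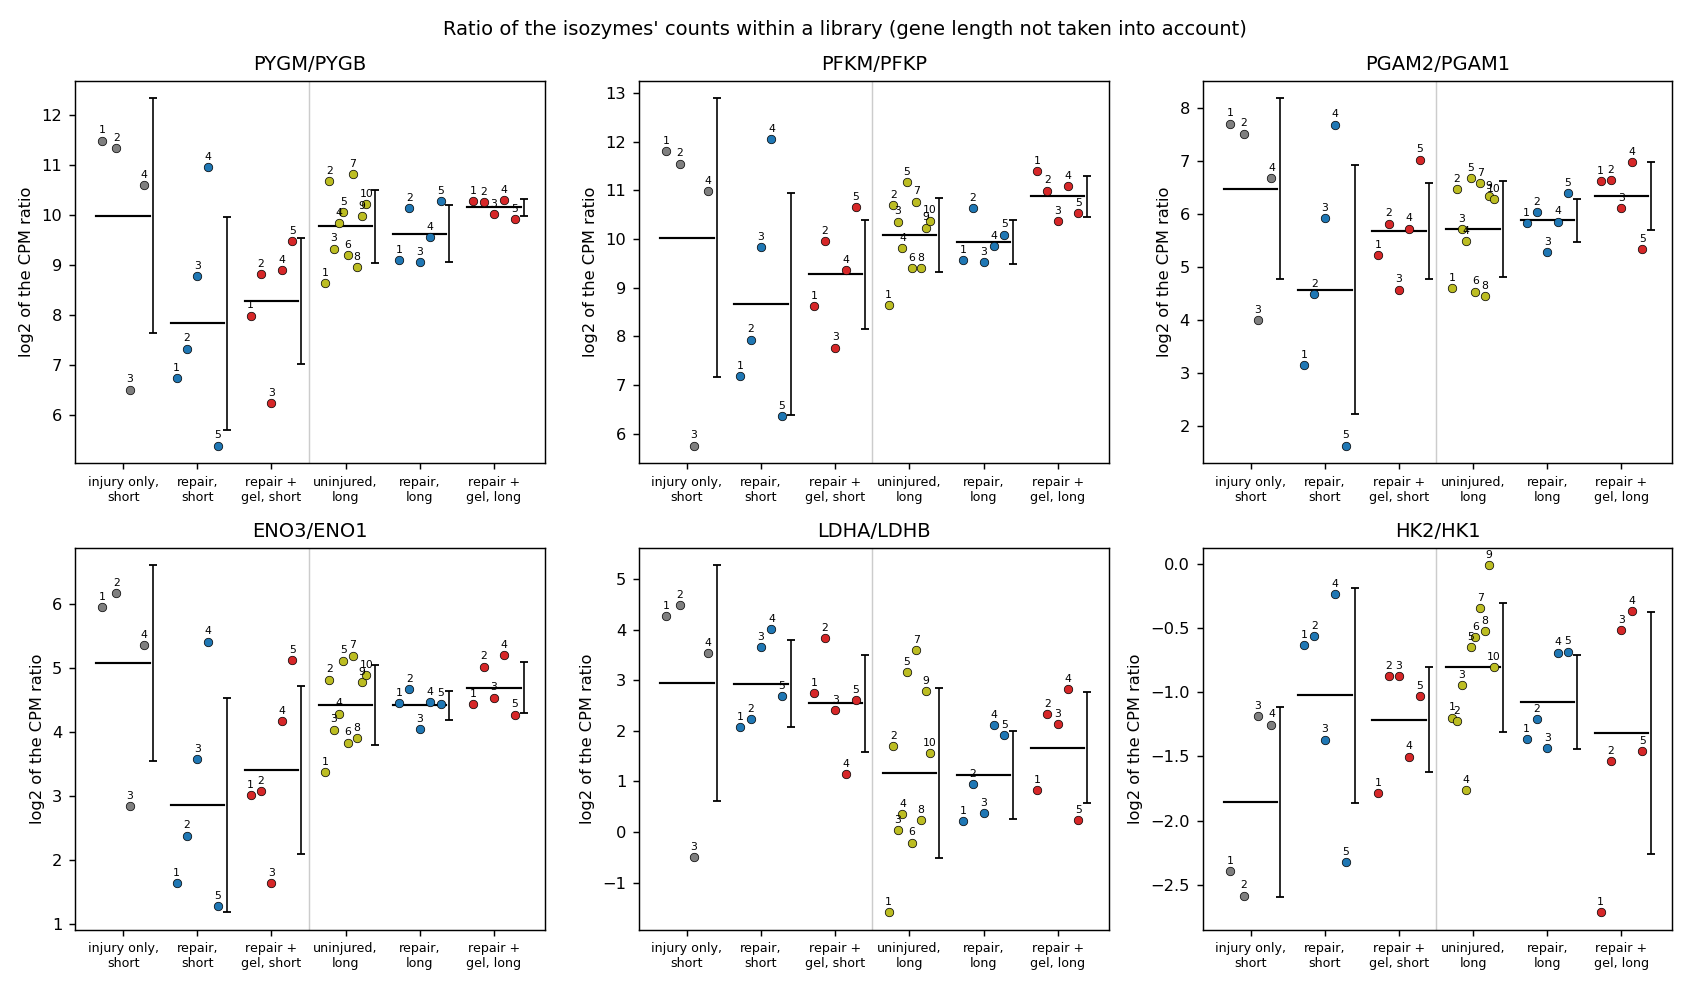
Log2 ratio of the CPM of the first isozyme to that of the second in each library (point), by group, with its replicate number, the group mean (bar) and SD (whisker). For PYGM to PYGB, injury libraries 1, 2 and 4 (10.6 to 11.5) and repair library 4 (11) sit above all other short-term libraries.

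In all, 36 ratio tests were made, 6 ratios in 6 comparisons. None passed after adjustment, and 2 had an unadjusted exact p under 0.05, both for PFKM to PFKP in the long term. That ratio was 11.4, 11, 10.4, 11.1 and 10.5 with gel and 9.57, 10.6, 9.53, 9.85 and 10.1 with repair. The means were 10.9 ± 0.420 and 9.93 ± 0.453 (SD, n = 5 each, exact permutation test p = 0.0238, adjusted p = 0.571). Uninjured muscle was at 10.1 ± 0.766 (n = 10), and gel differed from it with an exact p of 0.0406 (adjusted p = 0.571). That test leaves aside the pairing by animal code described below. Within those codes gel was higher by 1.01 (exact paired p = 0.0625, the smallest that 5 pairs allow). PFKP had 14 to 39 counts per long-term library, so counting error adds to this ratio.

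In the long term the repair was compared with uninjured muscle, and 1 of the 34 genes was called, beside 1.01% of 11605 genes. The median log2 difference was 0.07 with 23 of 34 above 0, beside 0.00 and 50% for all genes. At an unadjusted p under 0.05, 2 were higher (ALDOC and GYS1) and 1 lower (PYGL), where 7.85% and 3.87% of all genes were. The called gene was ALDOC. It was at 64.7, 6.70, 30.8, 16.5 and 5.35 CPM in repaired muscles 1 to 5. The 10 uninjured muscles were at 1.92 to 7.93 CPM (median 5.86). Repaired muscles 1, 3 and 4 lay above all uninjured ones, and 2 and 5 lay within their range. The log2 difference was 2.23 (SE 0.43, adjusted p = 0.0162).

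The call on ALDOC rested on few libraries. Without repaired muscle 1 it was 1.47 (adjusted p = 0.179) and without repaired muscle 3 it was 2.14 (adjusted p = 0.0645). Codes in the names under which the counts were deposited tie each operated muscle of the long term to an uninjured one, as if from the same animal. With that code as a block it was 1.70 (adjusted p = 0.561), and voom gave 1.72 (adjusted p = 0.0925). Within codes ALDOC was higher in 4 of 5 repaired muscles than in the uninjured partner, by 1.63 ± 1.67 (SD, n = 5 pairs) on the log2 scale. It was higher in 5 of 5 gel-treated muscles, by 1.18 ± 1.13. Gel-treated muscles were at 17.1, 17.9, 11.8, 6.34 and 6.54 CPM, with a fitted difference of 1.13 from uninjured muscle (SE 0.45, adjusted p = 0.329). Adipocyte markers summed to 1782, 727, 1891, 945 and 1193 CPM in repaired muscles 1 to 5, and to 553 to 1499 CPM in uninjured muscle. Tenocyte markers summed to 143, 42.7, 94.6, 764 and 107 CPM and to 33.4 to 93.0 CPM. Of these markers, 5 of the 7 adipocyte and 4 of the 4 tenocyte genes tested were called higher with repair. Over all genes 1.01% of 11605 were called in either direction. The highest tenocyte sum was in repaired muscle 4 and the highest ALDOC in repaired muscle 1. The part of these markers in the ALDOC values was not tested.

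**Figure D5:**
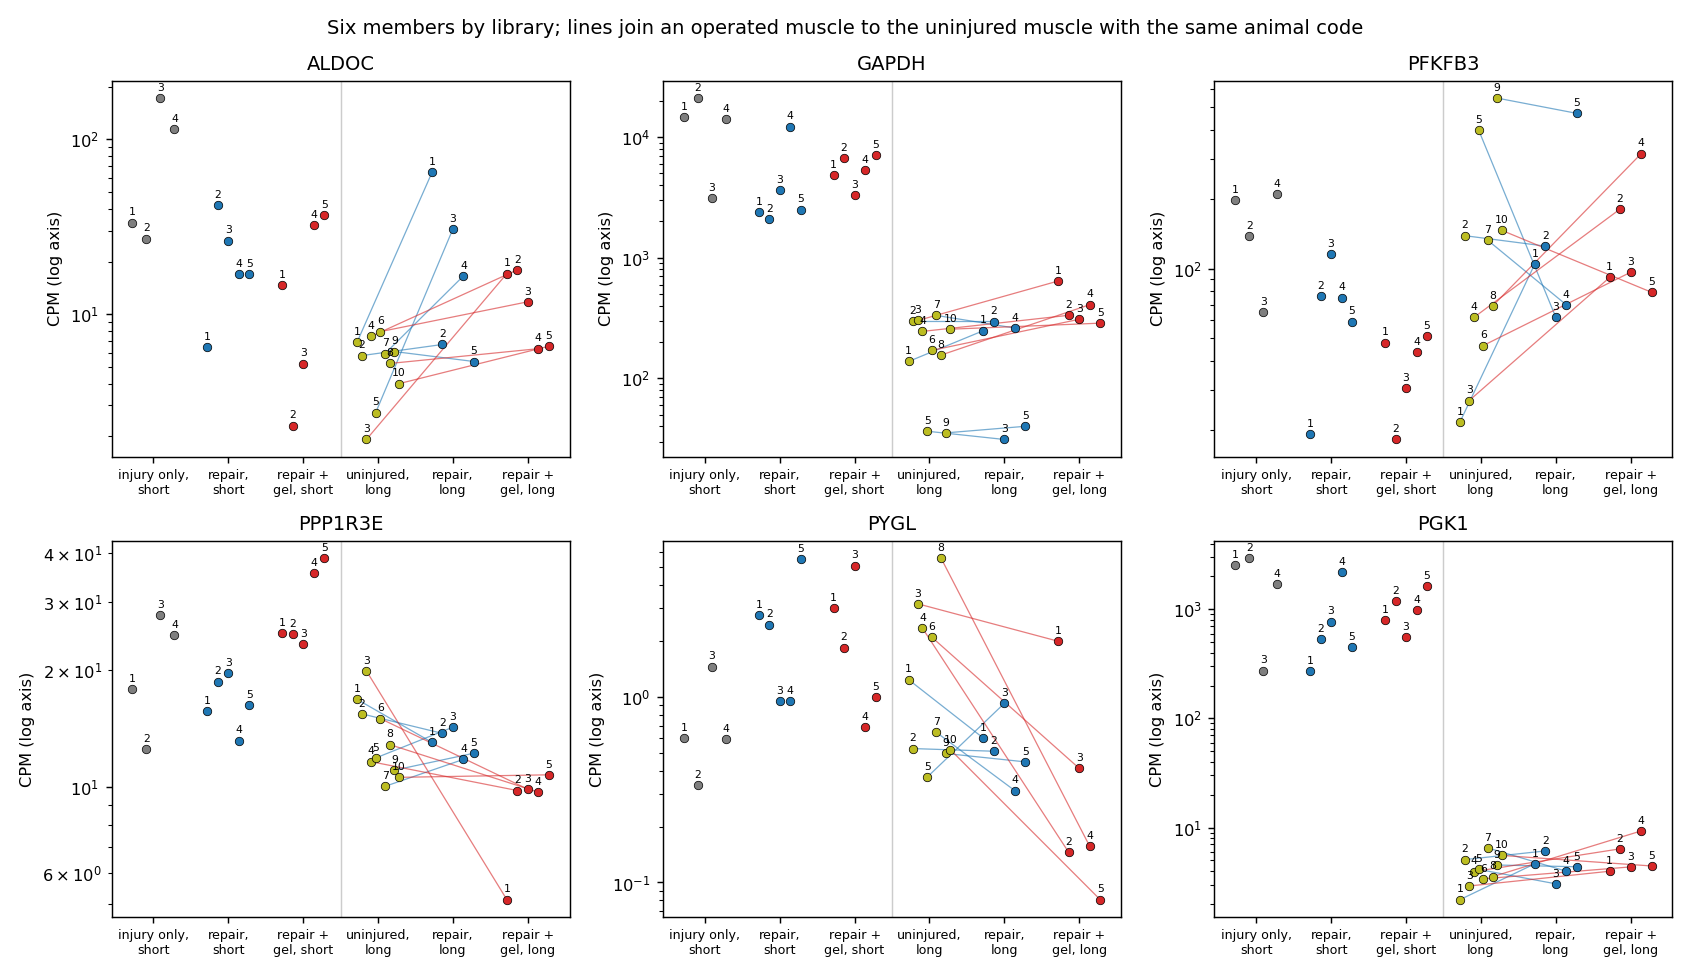
CPM on a log axis of 6 of the genes in each library, by group; numbers are replicate numbers, and lines join an operated long-term muscle to the uninjured muscle with the same animal code. ALDOC lines rise for all 5 gel-treated and 4 of 5 repaired muscles, GAPDH splits by code, and PYGL lines fall for all gel-treated muscles.

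With the gel in the long term, 0 of the 34 genes were called against uninjured muscle, beside 0.00862% of all genes. The unadjusted values leaned to the muscle isozymes and the later steps of the pathway: 12 genes were higher and 3 lower at an unadjusted p under 0.05, where 8.94% and 4.9% of all genes were. The median log2 difference was 0.33 with 25 of 34 above 0, beside -0.01 and 49.1% for all genes. All 10 genes of lower glycolysis were above 0 (median 0.61), and 9 of the 10 muscle isozymes (median 0.49). Among them PGAM2 was at 0.71 (SE 0.25), PKM, the pyruvate kinase that makes the final ATP, at 0.70 (SE 0.25), TPI1 at 0.61 (SE 0.21), ENO3 at 0.58 (SE 0.22) and PYGM at 0.59 (SE 0.25). GPI, which converts glucose phosphate to fructose phosphate, was at 0.65 (SE 0.22). All adjusted p-values were 0.325 or higher. HK2 was lower, at -0.40 (SE 0.15), and PPP1R3E at -0.58 (SE 0.18). With the animal code as a block and all libraries kept, edgeR again called 0 members. In that fit 19 of the 34 were at an unadjusted p under 0.05 in either direction, beside 1358 of 11605 genes.

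The lean to muscle isozymes and later steps was smaller without gel-treated muscle 1. This muscle held the highest long-term value of 20 of the 34 genes, and of 30.9% of all genes. GPI was at 3394 CPM there and at 1464 to 1911 CPM in the other 4 gel-treated muscles. PGAM2 was at 5354 CPM against 1820 to 2557 CPM. In the same muscle PHKB was at 244 CPM against 844 to 1238, PPP1R3A at 53.6 CPM against 328 to 592, GBE1 at 35.0 CPM against 108 to 243 and UGP2 at 85.8 CPM against 181 to 234, so its glycogen genes went both ways. Without it, 1 gene was higher (PGK1) and 3 were lower (HK2, PPP1R3E and PYGL) at an unadjusted p under 0.05, where 2.93% and 3.89% of all genes were, and the median was 0.21. The fast fibre genes moved alike: 11 of 11 tested were above 0 against uninjured muscle (median 0.52) with all libraries. Their part was not tested.

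Within animal codes 6 genes were higher in 5 of 5 gel-treated muscles than in their uninjured partners: GYS1, GPI, FBP2, ALDOC, TPI1 and GAPDH. HK2 and PYGL, 2 of the 34, were lower in 5 of 5. Over all genes tested 4.89% were higher and 4.51% lower in 5 of 5. A further 13 members were higher in 4 of 5, and the share of all genes for this was not counted. With 5 pairs the smallest 2-sided exact p is 0.0625. GPI differed by 0.79 ± 0.67 (SD, n = 5 pairs), GYS1 by 0.56 ± 0.56 and HK2 by -0.31 ± 0.097 on the log2 scale. In repaired muscles 0 of the 34 genes went the same way in all 5 pairs, where 5.38% of all genes were higher and 6.77% lower in all 5. The mean level of the 34 genes was above the uninjured partner by 0.65, 0.07, 0.26 and 0.40 and below it by 0.04 in gel-treated muscles 1 to 5, and the repaired muscles differed by 0.60, -0.05, -0.20, -0.14 and 0.17. The uninjured partners themselves differed: their levels were 7.42, 8.12, 7.93, 8.24 and 7.97 for the repaired and 7.76, 8.04, 7.81, 7.78 and 7.98 for the gel-treated animals.

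HK2 differed little between gel-treated muscles and their partners, and in the same direction in each pair. It was at 58.0, 62.5, 78.5, 82.7 and 62.8 CPM in gel-treated muscles 1 to 5 and at 80.2, 74.7, 93.1, 97.8 and 79.9 CPM in their uninjured partners. The groups overlapped while each pair differed in the same direction. The repaired muscles had a like mean difference in HK2 from their partners, -0.31 ± 0.36 (SD, n = 5 pairs), and were higher in 1 of 5. The lower HK2 is therefore not read as particular to gel. PYGL had few counts in the long term, 1 to 80 per library. It passed the filter there mainly through uninjured muscles, so its lower level in operated muscles is not independent of the filter. It was at 1.99, 0.145, 0.411, 0.157 and 0.081 CPM with gel and at 3.16, 2.34, 2.09, 5.56 and 0.518 CPM in the partners. In the uninjured partners of repaired muscles it was at 1.24, 0.526, 0.369, 0.642 and 0.495 CPM, close to the repaired muscles at 0.598, 0.509, 0.922, 0.312 and 0.446 CPM. The 4 highest long-term values of PYGL were in uninjured partners of gel-treated muscles.

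Gel and repair were then compared with each other in the long term. edgeR called 0 of the 34 genes, beside 0% of all genes. The median log2 difference was 0.24 with 23 of 34 above 0, beside -0.03 and 46.3% for all genes. At an unadjusted p under 0.05, 0 were higher and 2 lower (PPP1R3E and ALDOC), where 7.88% and 6.32% of all genes were. All 10 muscle isozymes were above 0 (median 0.45, and 9 of 10 with a median of 0.28 without gel-treated muscle 1). The largest positive difference was that of GAPDH, 1.14, which passed in no setting. GAPDH was at 31.2 and 40.1 CPM in repaired muscles 3 and 5, and at 36.5 and 35.4 CPM in their uninjured partners. The other repaired muscles were at 249 to 296 CPM and the gel-treated ones at 287 to 642 CPM. This comparison shares its repair and gel libraries with the comparisons against uninjured muscle. PFKM was at 4204, 3146, 2407, 3278 and 1937 CPM with gel and at 1636, 2170, 1273, 2532 and 2432 CPM with repair (log2 difference 0.55).

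GAPDH, the dehydrogenase of the middle of glycolysis that is often used as a reference gene, fell into separate levels in the long term. It was at 31.2 to 40.1 CPM in 4 libraries and at 138 to 642 CPM in the other 16, a gap of 3.44 times. The 4 were repaired muscles 3 and 5 (31.2 and 40.1 CPM) and uninjured muscles 5 and 9 (36.5 and 35.4 CPM), which are partners by their codes. In the operated and the uninjured muscle of a code the level was alike, so treatment and GAPDH level did not go together in these 2 codes. PFKFB3 was at 471 and 549 CPM in the pair of repaired muscle 5 and uninjured muscle 9. Uninjured muscle 5 had 400 CPM while its partner, repaired muscle 3, had 61.7 CPM. The other long-term libraries were at 21.7 to 315 CPM. LDHA was at 1615 and 1304 CPM in the first pair and at 827 and 1595 CPM in the second, where all long-term libraries spanned 206 to 1615 CPM.

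Between the terms many genes of all kinds differed. With repair, 13 of the 34 genes were called (6 higher and 7 lower in the long term), beside 46.2% of 12935 genes. With gel, 14 were called (7 higher and 7 lower), beside 48.3%. The members' share was below that of all genes in both of these fits. Of the called genes, 10 were called in the same direction in both, which is 10 of 13 and 10 of 14. The matching count over all genes was not made, so this overlap is not read as particular to the members. Of the 10, the 4 higher in the long term were GBE1, PFKFB1, PPP1R3A and PPP1R3C. The 6 lower were ENO1, PFKP, PYGB, PYGL, GAPDH and PGK1. GBE1 was at 1.96 with repair (SE 0.36, adjusted p = 6.75e-05) and 1.25 with gel (SE 0.35, adjusted p = 0.00408), and PPP1R3C at 2.14 (SE 0.60, adjusted p = 0.00481) and 2.31 (SE 0.61, adjusted p = 0.00247). PFKP was at -1.96 (SE 0.51, adjusted p = 0.00236) and -1.55 (SE 0.51, adjusted p = 0.0131). With the title number as a block within each term 2 and 4 members were called, beside 4.17% and 5.47% of all genes. Those blocks lie within a term, so a difference between the terms then depends on which block is the reference. No conclusion is drawn from that fit. The term, the depth and the preparation of the counts cannot be told apart, and the headers of all 20 long-term count tables name RNA STAR while 0 of the 14 short-term ones do.

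PGK1, which makes the first ATP of glycolysis, and GAPDH were the only members whose short-term libraries all lay above all long-term ones, which held for 2.91% of all genes. For 0 members, and 1.64% of all genes, they all lay below. PGK1 was at 270 to 2935 CPM in the short term and 2.18 to 9.31 CPM (30 to 119 counts) in the long term, with log2 differences of -7.57 with repair (SE 0.60, adjusted p = 8.25e-12) and -7.50 with gel (SE 0.59, adjusted p = 9.58e-12). GAPDH was at 2088 to 21053 CPM and 31.2 to 642 CPM, with differences of -4.70 and -3.78. Of 1177 genes with a median of at least 100 CPM in the short term, 38 were at least 16 times lower in the long term, these 2 among them. Of the 38, 22 were ribosomal protein genes by name (RPL or RPS), and EEF1A1, TPT1 and PPIA were also there. TPT1 was at 1855 to 7163 CPM and 5.86 to 10.8 CPM. In the reverse direction there were 4 such genes of 1383, none of them a member. Genes of this kind have many near-identical copies in mammalian genomes, and the sources used here do not state how reads that fit several places were counted. The part of counting in the differences of GAPDH and PGK1 between the terms was not tested.

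Other genes around the pathway were listed by role. Of 16 other glycolysis enzymes, 8 other glycogen enzymes, 8 glucose and lactate transport genes, 13 genes of pyruvate entry into mitochondria and 18 AMPK and glycolytic regulators in the short term, edgeR called 0 in any comparison within a term, and the same held in the long term with 15, 8, 8, 13 and 18 tested. The same fits called 0% of all genes in the short term and at most 1.01% in the long term. Without injury library 3 and repair library 4, repair against injury had 8, 4, 2, 6 and 5 of these genes called in the same order, beside 33.3% of all genes. The 6 called genes of pyruvate entry and the 4 other glycogen enzymes were all lower with repair, and the 2 transport genes were higher. At an unadjusted p under 0.05, the counts for gel against repair in the short term were 3 higher and 1 lower, 1 and 0, 0 and 0, 2 and 0, and 1 and 3, in that order. Over all genes 5.65% were higher and 4.73% lower. For repair against injury the counts were 2 and 1, 0 and 2, 1 and 1, 0 and 0, and 2 and 1. Over all genes 9.5% were higher and 5.09% lower. Between the terms 8, 5, 5, 10 and 13 were called with repair, beside 46.2% of all genes, and 7, 5, 5, 7 and 12 with gel, beside 48.3%. For pyruvate entry 9 of 13 were called higher in the long term and 1 lower with repair, where 18.2% and 27.9% of all genes were. With gel 6 were higher and 1 lower, where 21.8% and 26.5% of all genes were. MPC2, a subunit of the mitochondrial pyruvate carrier, was the lower one in both, at -2.53 (SE 0.18) and -2.86 (SE 0.19). PDK4, the kinase that closes pyruvate dehydrogenase, was higher with gel, at 3.49 (SE 0.75, adjusted p = 0.00036). Single genes of these lists were kept only for the smallest p in a comparison. The PDK4 value with repair is therefore not given, and its rise is not read as particular to gel. TXNIP, which restrains glucose uptake, was higher with both, at 1.39 (SE 0.31) and 1.61 (SE 0.31), and TBC1D1, a brake on glucose transporter traffic, lower with both, at -1.14 (SE 0.27) and -0.93 (SE 0.27).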

How the data were processed

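The authors deposited raw counts per gene for each of the 34 libraries, with no normalization. The submitters' processing notes name STAR, edgeR and the build OryCun2.0; the sources used here state no versions, annotation, strand setting or treatment of reads that fit several places. Each table held 18210 entries; 26 of them, turned into dates by a spreadsheet (0.054% to 0.163% of counts), were left out, and 18176 genes remained. Of 91 pairs of libraries within groups, 0 were identical.

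Counts were tested in R 4.3.3 with edgeR 4.0.16 (TMM, filterByExpr, robust quasi-likelihood test, 2-sided, Benjamini-Hochberg over all genes tested, threshold 0.05). The 14 short-term and 20 long-term libraries were fitted apart, and all 34 together for differences between the terms. Fitted log2 differences are the first group minus the second. Library levels are log2 CPM with a prior count of 2. DESeq2 1.42.0 and limma 3.58.1 (voom) were alternatives. Isozyme ratios were compared by exact permutation over libraries, where 5 against 5 allows p = 0.00794 at the smallest and 5 against 4 allows 0.0159. The code was tested on simulated data.

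The genes and lists were chosen with earlier results of these data known. Genes given library by library were those called within a term, the 2 with the smallest p in each comparison and the isozyme pairs; PGK1, PHKB, PPP1R3A, PPP1R3C and the others were chosen after their values were seen. Animal codes come from the names of the deposited tables. Of the coded pairs, 6 of 10 had deviations correlated above 0.1 (range -0.427 to 0.424). The correlations were 0.328, 0.358, -0.121, 0.369 and 0.424 for repaired muscles 1 to 5. For gel-treated muscles 1 to 5 they were lower, at -0.039, -0.427, 0.161, -0.100 and 0.116, so the pairing is less borne out there.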

Additional observations from a re-analysis of the deposited data

Results flagged for a closer look

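Among 126 gene and group combinations of 4 to 10 libraries, 12 had a library far from all others of its group by Dixon's test, where chance gives about 1 in 20. The injury library 3 gave 6 of them. It had the highest PYGB (36.8 CPM, others 11.9 to 13.3) and PFKP (12.4 CPM, others 1.92 to 2.12) of its group. It had the lowest PGAM2 (861 CPM, others 4472 to 5759) and LDHA (394 CPM, others 4179 to 6761), the lowest mean log2 CPM of the 34 genes (7.59, others 8.95 to 9.14) and the lowest of the muscle isozymes (8.81, others 11.3 to 11.8). The short-term repair library 5 was highest in PGAM1 (225 CPM, others 28.8 to 47.0) and ENO1 (661 CPM, others 248 to 299). The long-term repair library 3 was lowest in GPI (1118 CPM, others 1494 to 1623) and ENO3 (2159 CPM, others 3489 to 4063). The long-term gel library 1 was lowest in PPP1R3E (5.13 CPM, others 9.70 to 10.8) and highest in the mean log2 CPM of the non-muscle isozymes (5.31, others 3.88 to 4.23).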

How the results depend on the processing

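Within a term, the sign of a member's difference turned in at least 1 alternative for 22 of 34 genes in gel against repair in the short term and 11 in the long term, for 5 in repair against injury and 6 in gel against injury, and for 17 and 9 in repair and gel against uninjured muscle. None of the genes at an unadjusted p under 0.05 in those comparisons was among them. In the short term, without repair library 5 PGAM1 went from 0.98 to -0.03 for repair against injury, and without repair library 4 PYGM went from -0.06 to 0.68 for gel against repair. The median over the members turned for gel against repair in the short term (0.09, and -0.09 to -0.04 in 4 alternatives). For the counts of members called, 330 alternative values stayed within 1.5 times and 15 did not. DESeq2 called 1 member for gel against repair and 2 for gel against injury in the short term, and 1 for the gel effect between terms, where edgeR called 0. Voom with quality weights called 27 for repair against injury, 17 for gel against injury and 0 for repair against uninjured muscle. For the first 2 of these comparisons edgeR called 0 with all libraries, and 26 and 15 without injury library 3 and repair library 4. Leaving out a library at a time gave 0 to 1 for gel against injury (1 without injury library 3), 0 to 1 for repair against uninjured (0 without repair library 1 or 3), 8 to 17 for repair between terms (8 without short-term repair library 5) and 11 to 17 for gel between terms. Counts over all genes reached 34 for repair against injury, 382 for gel against injury and 319 for repair against uninjured muscle in such fits.

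With the animal code as a replicate block, 0 members were called for repair against uninjured muscle. With the title number as a replicate block within a term, 2 were called for repair and 4 for gel between terms. Those blocks lie within a term, so these counts depend on the reference block and are not read as a check. The numbers pair no samples by their labels. Of the numbered pairs, 5 of 13 short-term and 1 of 5 long-term ones had deviations correlated above 0.1. The cause of the other changes was not tested. Long-term depth limits PYGL (1 to 80 counts) and PFKP (14 to 39 counts).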
